A study of Mus musculus with 24 samples.

Results

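The interleukin 12 family consists of secreted cytokines that are each built from an alpha chain and a beta chain, and its 5 subunit genes are Il12a, Il12b, Il23a, Il27 and Ebi3. These 5 genes were taken by name from the 38887 genes in the count table, by their membership of the family. They were measured by RNA sequencing of mouse bone marrow-derived dendritic cells, antigen-presenting cells that are grown in culture from marrow precursors. The cells were labelled WT or KO for IRE1, the endoplasmic reticulum stress sensor encoded by Ern1 that splices the Xbp1 mRNA, and were left untreated or were given Zymosan, a yeast cell wall preparation, or LPS, a bacterial lipopolysaccharide. Each of the 6 groups (WT untreated, WT Zymosan, WT LPS, KO untreated, KO Zymosan and KO LPS) held 4 samples, 24 in all. The labels used here do not give the knockout allele, any Cre driver, the age or strain of the mice, the dose or the length of stimulation.

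The subunits pair in fixed combinations. The Il12b product, p40, joins the Il12a product, p35, to make IL-12, and joins the Il23a product, p19, to make IL-23. The Ebi3 product joins the Il27 product, p28, to make IL-27, and joins p35 to make IL-35. As general background, IL-12 drives interferon-gamma production by T cells and natural killer cells, IL-23 maintains IL-17-producing T cells, IL-27 has both activating and restraining effects on T cells, and IL-35 is known mainly from regulatory lymphocytes. Dendritic cells that sense microbes are a main source of IL-12, IL-23 and IL-27, and p40 is usually made in excess over its partners.

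On GRCm38, in the GENCODE M21 annotation, the genes lie on 5 chromosomes. Il12a spans 68690644 to 68698547 on the plus strand of chromosome 3, and Il12b spans 44400063 to 44414033 on the plus strand of chromosome 11. Il23a spans 128296139 to 128298752 on the minus strand of chromosome 10, Il27 spans 126589010 to 126594941 on the minus strand of chromosome 7, and Ebi3 spans 55952640 to 55957022 on the plus strand of chromosome 17. All are protein-coding. The end of Il27 overlaps Apobr on the opposite strand (chromosome 7, 126584942 to 126589112), and Ebi3 overlaps the antisense gene Gm16712 (chromosome 17, 55954771 to 55959381). Whether counting used strand is not given in the sources used here, so reads in these overlaps may be shared. Group means were 100.2 to 159.6 CPM (counts scaled to the TMM library size) for Apobr and 3.18 to 8.89 CPM for Gm16712.

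The promoter sequences are shown because the members moved together with both stimuli, and NF-kappa-B, AP-1, interferon regulatory factors and PU.1 are the factors best known at these genes. RefSeq promoter sequences on GRCm38.p6 were matched for 3 of the 5 members, Il12a (at 2 starts), Il12b and Ebi3, and the 250 bases before each start were searched on both strands. Capitals mark matches to GGGNNNNNCC (a kappa-B pattern) or GAGGAA (a PU.1 pattern). These are pattern matches, not measured binding.
Il12b, chr11:44399813-44400062, plus strand: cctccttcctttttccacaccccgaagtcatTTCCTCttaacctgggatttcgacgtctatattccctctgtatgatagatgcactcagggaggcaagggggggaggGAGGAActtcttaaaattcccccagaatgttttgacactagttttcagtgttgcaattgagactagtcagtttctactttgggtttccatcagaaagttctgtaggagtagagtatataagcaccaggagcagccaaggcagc
Ebi3, chr17:55952373-55952622, plus strand: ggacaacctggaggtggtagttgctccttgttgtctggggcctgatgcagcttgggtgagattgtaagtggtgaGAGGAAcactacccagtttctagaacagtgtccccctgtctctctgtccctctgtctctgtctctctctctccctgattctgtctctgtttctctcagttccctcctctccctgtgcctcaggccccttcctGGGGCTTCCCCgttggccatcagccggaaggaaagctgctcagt
Il12a, second start, chr3:68691174-68691423, plus strand: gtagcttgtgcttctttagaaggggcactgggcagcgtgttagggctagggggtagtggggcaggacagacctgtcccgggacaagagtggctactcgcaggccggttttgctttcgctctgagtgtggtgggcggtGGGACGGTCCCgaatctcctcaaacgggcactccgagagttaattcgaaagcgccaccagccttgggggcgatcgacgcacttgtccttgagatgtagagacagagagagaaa

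The Il12b sequence holds GAGGAA once on each strand and no match to the kappa-B pattern. A search for GGGNNNNNCC misses any kappa-B site that departs from these letters, so this does not show that none is present. The Ebi3 sequence holds a run that matches the kappa-B pattern 34 to 44 bases before the start, in 4 overlapping readings, and 1 GAGGAA. The second Il12a start, which lies within the first intron of the longer annotated transcript, has a kappa-B run 103 to 113 bases before it, and the first Il12a start has no match to any pattern. The kappa-B pattern occurred in 45.8% of the 32851 windows of this length and GAGGAA in 23.3%, so these matches are common. No match was found in the 4 windows to TGANTCA (an AP-1 pattern, 6.75% of windows), the interferon response pattern (GAAA, any 2 bases and GAAA again, 2.98%) or TGACGTGG (a pattern bound by spliced XBP1, 0.563%).

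Library totals ran from 32223256 to 46927434 counts. Differences were tested over 14188 genes with edgeR's quasi-likelihood test and Benjamini-Hochberg adjustment at 0.05, and folds are given on the fitted scale. Conventional dendritic cell markers were uneven. In group means Itgax (1050 to 1310 CPM) and Zbtb46 (15.0 to 25.4 CPM) were present in all groups. So were Itgam (1290 to 2140 CPM), Sirpa (452 to 596 CPM), H2-Ab1 (432 to 771 CPM) and Cd24a (62 to 199 CPM). Clec9a was lower (3.17 to 11.4 CPM), Flt3 (0.931 to 2.34 CPM) and Xcr1 (0.389 to 2.7 CPM) were low, and Cd209a was near 0. The labels do not say whether the 4 samples of a group came from separate mice. In every group but WT LPS, samples 1 and 2, and samples 3 and 4, were closer to each other than to the rest. The median chi-square per gene was 3.99 within the 12 such pairs of all groups and 15.0 in the 24 other pairs. In WT LPS, samples 3 and 4 (7.62) were farther apart than samples 2 and 3 (6.26). These pairs are called the closer samples below, in WT LPS too. The p-values thus measure the spread between these samples, which may be technical. Ern1 counts over the whole gene were higher in the samples labelled KO (36.6 to 41.8 CPM with LPS, against 27.1 to 29.9 in WT), which says nothing about a deleted exon, and KO below means labelled KO. Eosinophil markers summed to between 786 and 1220 CPM in every WT library, and to between 42.4 and 54.2 CPM in every KO library. Summed macrophage and monocyte markers were 2770 to 2907 CPM in WT and 2068 to 2130 CPM in KO with LPS, and 2818 to 2950 against 2361 to 2610 CPM with Zymosan. In these bulk samples fewer cells of a type and less RNA per cell cannot be told apart.

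All 5 subunit mRNAs rose with both stimuli, from 2.90 CPM or less for 4 of them and from a higher untreated level for Ebi3. Il12b, the shared p40 chain, reached the highest level. Its mRNA stood at 2.90, 2.85, 2.52 and 2.24 CPM in samples 1 to 4 of the untreated WT group, and at 1.92, 1.59, 2.60 and 2.35 CPM in the untreated KO group. With Zymosan the WT samples had 732, 789, 631 and 678 CPM and the KO samples 482, 490.4, 579 and 513 CPM. With LPS the WT samples had 2736, 2980, 2970 and 2766 CPM and the KO samples 1920, 1993, 1867 and 1864 CPM. Every stimulated sample lay far above every untreated one, and the 4 stimulated groups did not overlap at all, in the order WT LPS, KO LPS, WT Zymosan, KO Zymosan, with 1.498-fold, 2.70-fold and 1.37-fold steps between their means. The untreated groups overlapped.

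Ebi3, the shared beta chain of IL-27 and IL-35, was the one member with a high untreated level. The untreated WT samples had 29.7, 32.2, 30.1 and 29.6 CPM and the untreated KO samples 32.5, 31.9, 30.9 and 29.8 CPM. With Zymosan these were 88.5, 96.5, 73.5 and 75.3 CPM in WT and 78.5, 75.8, 70.7 and 74.8 CPM in KO. With LPS they were 125, 119, 108 and 125 CPM in WT and 120.5, 122, 117 and 116 CPM in KO. The 3 conditions were separate at every sample, and within each condition WT and KO overlapped.

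Il12a, the p35 chain of IL-12 and IL-35, was barely detected without a stimulus. Untreated samples had 0.575, 0.496, 0.280 and 0.249 CPM in WT and 0.328, 0.256, 0.407 and 0.261 CPM in KO, from 13 to 26 counts a sample. With Zymosan the WT samples had 20.8, 21.4, 17.7 and 19.1 CPM and the KO samples 19.3, 16.9, 19.4 and 17.2 CPM. With LPS the WT samples had 24.1, 21.1, 21.8 and 23.3 CPM and the KO samples 17.8, 16.4, 17.9 and 16.8 CPM. The 4 stimulated groups formed 1 overlapping series, in which each group overlapped its neighbour in rank, and they were 43.1-fold above the untreated groups at the nearest step between means.

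Il23a, the p19 chain of IL-23, was the one member that was higher with Zymosan than with LPS in both genotypes. Untreated samples had 0.531, 0.620, 0.366 and 0.421 CPM in WT and 0.368, 0.413, 0.474 and 0.317 CPM in KO, from 17 to 30 counts a sample. With Zymosan the WT samples had 29.8, 24.7, 20.6 and 21.5 CPM and the KO samples 22.3, 23.1, 20.3 and 18.6 CPM. With LPS the WT samples had 7.49, 8.78, 10.2 and 10.2 CPM and the KO samples 10.2, 10.3, 11.8 and 12.4 CPM. All 8 Zymosan samples lay above all 8 LPS samples, and the Zymosan groups of the 2 genotypes overlapped. With LPS each KO sample was above each WT sample, though the highest WT and the lowest KO samples were both at 10.2 CPM after rounding.

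Il27, the p28 chain of IL-27, was highest in WT cells given LPS. Untreated samples had 1.22, 1.30, 1.36 and 1.32 CPM in WT and 1.47, 1.32, 1.04 and 0.950 CPM in KO. With Zymosan the WT samples had 40.1, 48.3, 47.2 and 54.1 CPM and the KO samples 34.2, 29.2, 42.1 and 38.0 CPM. With LPS the WT samples had 87.9, 79.6, 91.4 and 105 CPM and the KO samples 44.7, 44.7, 49.99 and 49.1 CPM. The WT LPS group stood 1.92-fold above the next group and overlapped none. The WT Zymosan and KO LPS groups overlapped, with means that differed 1.01-fold. The KO Zymosan group lay 1.31-fold below the KO LPS group without overlap, and its highest sample was above the lowest WT Zymosan sample.

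**Figure D1:**
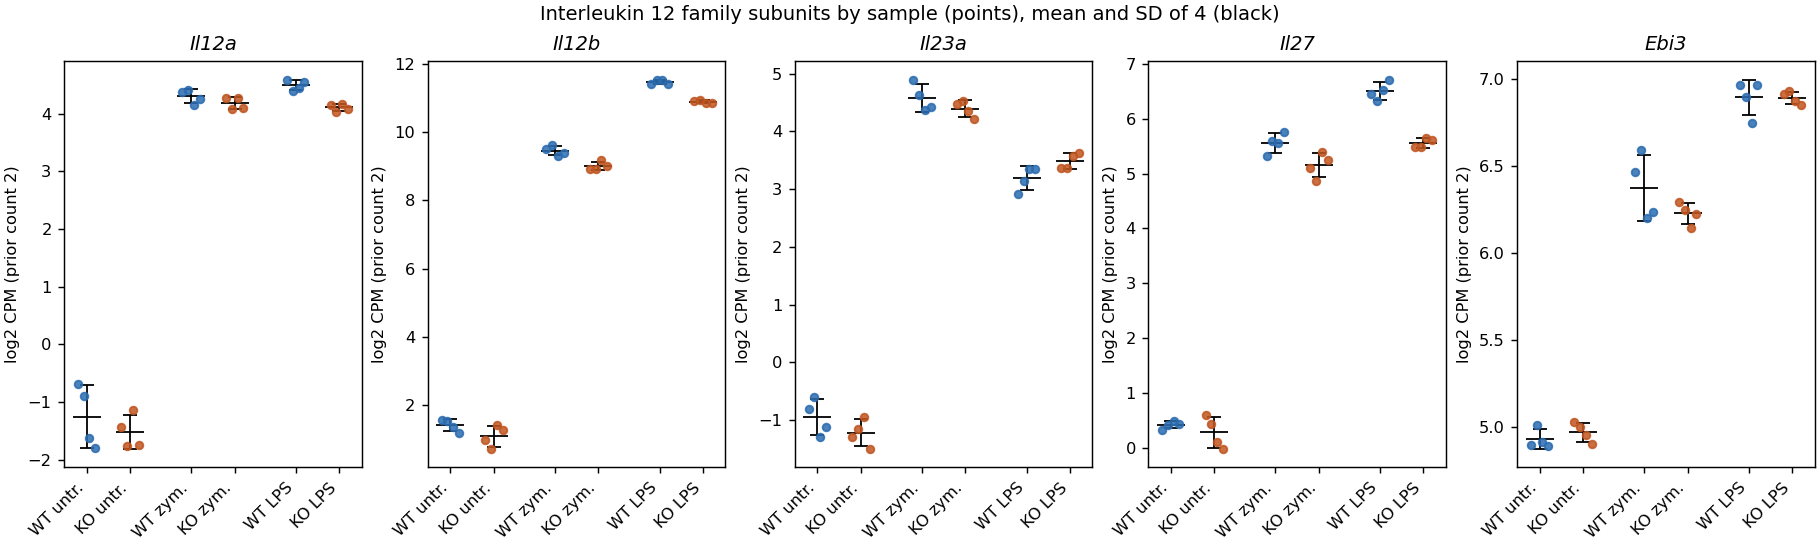
Level of each interleukin 12 family subunit mRNA in the 6 groups, in log2 CPM (prior count 2), with a point for each sample and the mean and SD of the 4 samples as a bar. Il12b spans from 2.12 CPM in the mean of untreated KO cells to 2863 CPM in WT cells given LPS, Ebi3 starts at 30.4 CPM in untreated WT cells, and Il23a is the panel in which Zymosan stands above LPS.

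Which subunits each stimulus raised was asked first, in each genotype against its own untreated cells. In WT cells Zymosan raised all 5 members, where 34.3% of the genes tested were called higher and 35.9% lower (70.2% in all). LPS also raised all 5, where 35.9% were called higher and 39.7% lower (75.6% in all). The median log2 fold change of the members was 5.63 with Zymosan and 5.82 with LPS, and that of all genes tested was -0.01 and -0.04. The split of all calls depended on the scaling, with 48.9% (Zymosan) and 47.5% (LPS) of them higher under TMM and 22.8% and 24.9% under library totals, while the 5 members were called higher under both. Il12b had the third-largest fitted change of the 14188 genes with each stimulus.

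With Zymosan the edgeR log2 fold change in WT cells was 8.08 ± 0.11 (SE) for Il12b (adjusted p = 6.61e-26). Il12a and Il23a, the partners of p40, rose by the same 49.5-fold (log2 5.63 ± 0.13 and 5.63 ± 0.16). Il27 rose 36.4-fold (5.19 ± 0.14) and Ebi3 2.75-fold (1.46 ± 0.07, edgeR adjusted p = 6.29e-16). With LPS, beside these, Il12b had a log2 fold change of 10.09 ± 0.12, Il27 rose 69.8-fold (6.12 ± 0.14), Il12a 56.6-fold (5.82 ± 0.13), Il23a 18.9-fold (4.24 ± 0.17) and Ebi3 3.92-fold (1.97 ± 0.07). Both sets use the same untreated samples. The alpha chains and p40 thus rose by 18.9-fold or more with each stimulus, and Ebi3 by 3.92-fold or less from its higher untreated level.

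In KO cells all 5 members also rose with Zymosan (31.6% of genes called higher and 35.2% lower, 66.8% in all) and with LPS (34.4% higher and 37.4% lower, 71.8% in all). Of all calls in KO cells 47.3% and 48.0% were higher, and 22.4% and 27.1% with library totals. Il12b rose 244.5-fold with Zymosan and 905.4-fold with LPS against untreated KO cells. The KO log2 fold changes with Zymosan were 5.87 ± 0.13 for Il12a, 5.75 ± 0.17 for Il23a, 4.90 ± 0.14 for Il27 and 1.26 ± 0.07 for Ebi3. With LPS they were 5.79 ± 0.13 for Il12a, 4.83 ± 0.17 for Il23a, 5.30 ± 0.14 for Il27 and 1.93 ± 0.07 for Ebi3. All 10 responses passed in KO cells too, with edgeR adjusted p-values from 5.26e-27 (Il12b, LPS) to 1.6e-14 (Ebi3, Zymosan).

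The 2 stimuli were then compared directly. In WT cells 1 member, Il23a, was higher with Zymosan than with LPS and the other 4 were lower, where 46.4% of genes tested were called (24.5% higher and 21.9% lower). Il23a was 2.63-fold higher with Zymosan (log2 1.39 ± 0.11, 95% interval 1.17 to 1.62, edgeR adjusted p = 2.17e-10). Its alternative partner for p40, Il12a, was 1.14-fold lower (log2 -0.19 ± 0.08, interval -0.36 to -0.03, adjusted p = 0.0468). Il27 had a log2 difference of -0.94 ± 0.09 (adjusted p = 1.22e-08) and Ebi3 one of -0.51 ± 0.06 (adjusted p = 4.28e-07), so both chains of IL-27 were lower with Zymosan. Il12b had the largest of the members' differences, -2.02 ± 0.08.

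The small Il12a difference did not hold in 9 of the alternative settings, among them library totals without TMM scaling (adjusted p = 0.107), no filter on low counts (0.0538), samples 1 and 2 alone (0.315), and the sums of samples 1 and 2 and of samples 3 and 4 (0.279). It was also lost without WT Zymosan replicate 3 (0.163) or 4 (0.102), and without WT LPS replicate 1 (0.137), 3 (0.0555) or 4 (0.106).

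In KO cells Il23a was again the 1 member higher with Zymosan, and 3 were lower, where 42.7% of genes were called (22.7% higher and 20.0% lower). Il23a was 1.89-fold higher (log2 0.92 ± 0.11, adjusted p = 1.98e-07). Il12b was 3.70-fold lower, Il27 1.32-fold lower (log2 -0.40 ± 0.10, adjusted p = 0.00163) and Ebi3 had a log2 difference of -0.66 ± 0.06. Il12a was not called, with a log2 difference of 0.08 and a 95% interval of -0.09 to 0.24.

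**Figure D2:**
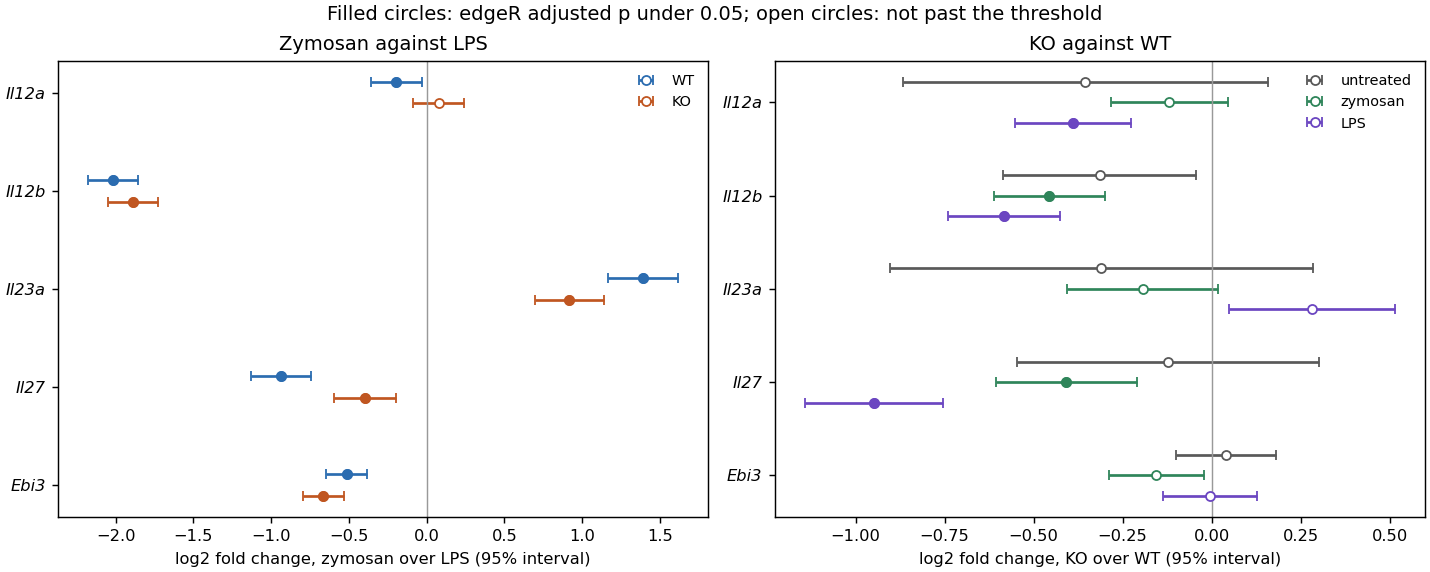
edgeR log2 fold change of each subunit with its 95% interval, for Zymosan over LPS in each genotype and for KO over WT in each condition. Filled points have an adjusted p under 0.05. Il23a is the only member to the right of 0 for Zymosan over LPS in WT cells (1.39), and Il27 lies farthest to the left for KO over WT with LPS (-0.95).

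Whether the genotype label went with subunit levels was asked within each condition. Without a stimulus 0 of the 5 members were called, where 9.95% of genes were by edgeR (4.31% higher and 5.64% lower), and DESeq2 also called 0. At an unadjusted edgeR p under 0.05 there was 1, Il12b. Il12b had a log2 difference of -0.31 (95% interval -0.58 to -0.04, adjusted p = 0.156), and Ebi3 one of 0.04 (-0.10 to 0.18). The intervals for the 3 alpha chains, at low counts, were wide, from -0.87 to 0.16 for Il12a, -0.90 to 0.29 for Il23a and -0.55 to 0.30 for Il27.

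With Zymosan, Il12b and Il27 were lower in KO cells and 3 members were not called, where 22.1% of genes were called (10.6% higher and 11.4% lower). Il12b was 1.37-fold lower (log2 -0.46 ± 0.08, edgeR adjusted p = 8.42e-05) and Il27 was 1.33-fold lower (log2 -0.41 ± 0.10, adjusted p = 0.00299). The size of the Il12b difference varied from -0.64 to -0.26 over 18 alternative settings. It was called in all 18, with edgeR or DESeq2 adjusted p of at most 0.044. Of all calls 48.2% were higher, and 60.0% with library totals. The intervals were -0.28 to 0.05 for Il12a, -0.41 to 0.02 for Il23a and -0.29 to -0.02 for Ebi3 (adjusted p = 0.0912). With the closer samples summed, Il27 had an adjusted p of 0.0847, and with replicates 1 and 2 alone all 5 members were called lower. Ebi3 had an adjusted p of 0.0206 without WT Zymosan replicate 3 and 0.0357 without replicate 4, the 2 lower samples of its group.

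With LPS, Il27, Il12b and Il12a were lower in KO cells, where 33.9% of genes were called (15.6% higher and 18.2% lower), and Ebi3 and Il23a were not called. Il27 was 1.93-fold lower (log2 -0.95 ± 0.09, interval -1.14 to -0.76, edgeR adjusted p = 2.86e-08). Il12b was 1.498-fold lower (log2 -0.58 ± 0.08, adjusted p = 2.09e-06), and Il12a 1.31-fold lower (log2 -0.39 ± 0.08, adjusted p = 0.000485). In each of these 3 called members, the highest KO sample was below the lowest WT sample. The share of all genes without such overlap was not computed, so this adds nothing to the calls. Ebi3, the partner of Il27, had a log2 difference of -0.01 with a 95% interval of -0.14 to 0.13, so a change of the size seen for Il27 lay far outside its interval. The members' median was -0.39 and that of all genes tested was 0.01. Of all calls 46.2% were higher, and 70.8% with library totals, under which Il27, Il12b and Il12a were still called lower.

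Il23a was the member on the other side, with a log2 difference of 0.28 (interval 0.05 to 0.52) that did not pass (adjusted p = 0.0566). It passed in 6 alternative settings, without WT LPS replicate 3 (0.0411) or 4 (0.0438), with library totals (log2 0.37, adjusted p = 0.0121), in a fit of only the groups compared (0.0336), and with replicates 1 and 2 alone (0.0158) or 3 and 4 alone (0.0323). The Il12a difference had an adjusted p of 0.0555 with the closer samples summed. The genotype differences stand beside the lower eosinophil and macrophage marker sums of the KO samples given above. In these, 5 of 6 eosinophil markers were lower with Zymosan and 6 with LPS. Of 8 macrophage and monocyte markers, 4 were lower with Zymosan and 7 with LPS. Of all genes tested, 11.4% were called lower with Zymosan, and 18.2% lower and 15.6% higher with LPS. Other marker sums were higher in KO cells with LPS without overlap, those of neutrophils (1589 to 1779 CPM against 1267 to 1358 in WT, with 4 of 8 markers higher and 2 lower) and of mast cells and basophils (26.0 to 29.0 against 16.9 to 20.1 CPM, with 2 of 5 higher). With Zymosan both of these sums overlapped between genotypes. The part of any of these cells in the subunit differences was not tested.

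The response of 1 member, Il27, differed between genotypes. Its rise with LPS was 1.77-fold smaller in KO than in WT cells (interaction log2 -0.83 ± 0.23, interval -1.30 to -0.36, edgeR adjusted p = 0.0209), where 10.4% of genes were called (4.61% higher and 5.84% lower). Of all calls 44.1% were higher, and 79.1% with library totals, under which Il27 was still called. The other 4 interactions with LPS were not called. They were -0.27 ± 0.15 for Il12b (adjusted p = 0.279), 0.59 ± 0.31 for Il23a (0.238), -0.03 for Il12a (0.961) and -0.05 for Ebi3 (0.81). With replicates 3 and 4 alone the Il12b interaction was -0.68 and passed (adjusted p = 0.0113).

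For the response to Zymosan 0 of 5 interactions were called with edgeR, where 1.82% of genes were (0.973% higher and 0.846% lower), and 0 with DESeq2. At an unadjusted edgeR p under 0.05 there was 1, Ebi3 (-0.20, adjusted p = 0.374), and Il27 had -0.29 ± 0.23 (adjusted p = 0.688). For Zymosan over LPS the 1 member called was again Il27 (0.54 ± 0.13, adjusted p = 0.0412, where 1.47% of genes were called, 0.839% higher and 0.634% lower), whose level with LPS exceeded that with Zymosan 1.92-fold in WT and 1.32-fold in KO cells. Il23a had -0.48 ± 0.15 (adjusted p = 0.108). The Il27 interaction with LPS was lost without KO untreated replicate 1 (log2 -0.71, adjusted p = 0.0662) with replicates 3 and 4 alone (log2 -0.56, 0.15) and with the closer samples summed (0.239). The Il27 interaction of Zymosan over LPS was lost when any 1 of 10 samples was left out (WT Zymosan 1, 2 or 3, WT LPS 1, 3 or 4, KO Zymosan 3 or 4, KO LPS 1 or 2, with adjusted p 0.0529 to 0.103). With library totals the share of higher calls among all genes went from 53.5% to 76.6% for the Zymosan interaction and from 56.9% to 33.5% for that of Zymosan over LPS.

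Which partner chain was in excess was asked within each sample, from the log2 ratio of the counts of 2 partners, which does not depend on library scaling. The balance of the p40 partners moved most. The log2 ratio of Il23a to Il12b was -4.88 ± 0.18 (SD, n = 4) in WT cells with Zymosan and -8.29 ± 0.19 with LPS. The p19 message per p40 message was therefore 10.6-fold higher with Zymosan in WT cells (difference 3.41) and 6.99-fold higher in KO cells, and no sample of one stimulus overlapped the other. The p35 message per p40 message was 3.54-fold higher with Zymosan in WT and 3.91-fold higher in KO cells. Each of these 4 differences had an adjusted p of 0.0396 in a two-sided exact permutation test of 4 against 4 samples, adjusted over 36 such comparisons, where the smallest p before adjustment is 0.0286. Of the 36, 26 passed, which were those whose groups did not overlap. The test takes the 4 samples of a group as separate units, which the closer samples may not be. With these summed, the differences were computed but not tested. Ratios of other gene pairs were not computed, so no share stands beside this count.

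In WT cells against untreated cells, both p40 ratios fell with each stimulus, as Il12b rose more than its partners did. The log2 ratio of Il12a to Il12b went from -2.66 untreated to -5.16 with Zymosan and -6.98 with LPS. The ratio of Il27 to Ebi3 moved the other way. It rose 12.9-fold with Zymosan and 17.3-fold with LPS in WT cells (exact permutation test, adjusted p = 0.0396 for each).

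Between genotypes, the log2 ratio of Il27 to Ebi3 with LPS was -0.40 ± 0.18 in WT and -1.33 ± 0.12 in KO cells (SD, n = 4), a difference of -0.94 (exact permutation test, adjusted p = 0.0396). With Zymosan the difference was -0.26 (adjusted p = 0.299 in the same exact test). The ratio of Il23a to Il12b with LPS was 1.83-fold higher in KO cells (difference 0.87, exact adjusted p = 0.0396), and with Zymosan the difference was 0.27 (exact adjusted p = 0.206). The ratio of Il12a to Il12b was 1.26-fold higher in KO cells with Zymosan (exact adjusted p = 0.0396), and with LPS the difference was 0.19 (exact adjusted p = 0.11). The p19 to p40 balance with LPS thus did not overlap between genotypes. The Il23a level itself had not passed the test over all genes.

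**Figure D3:**
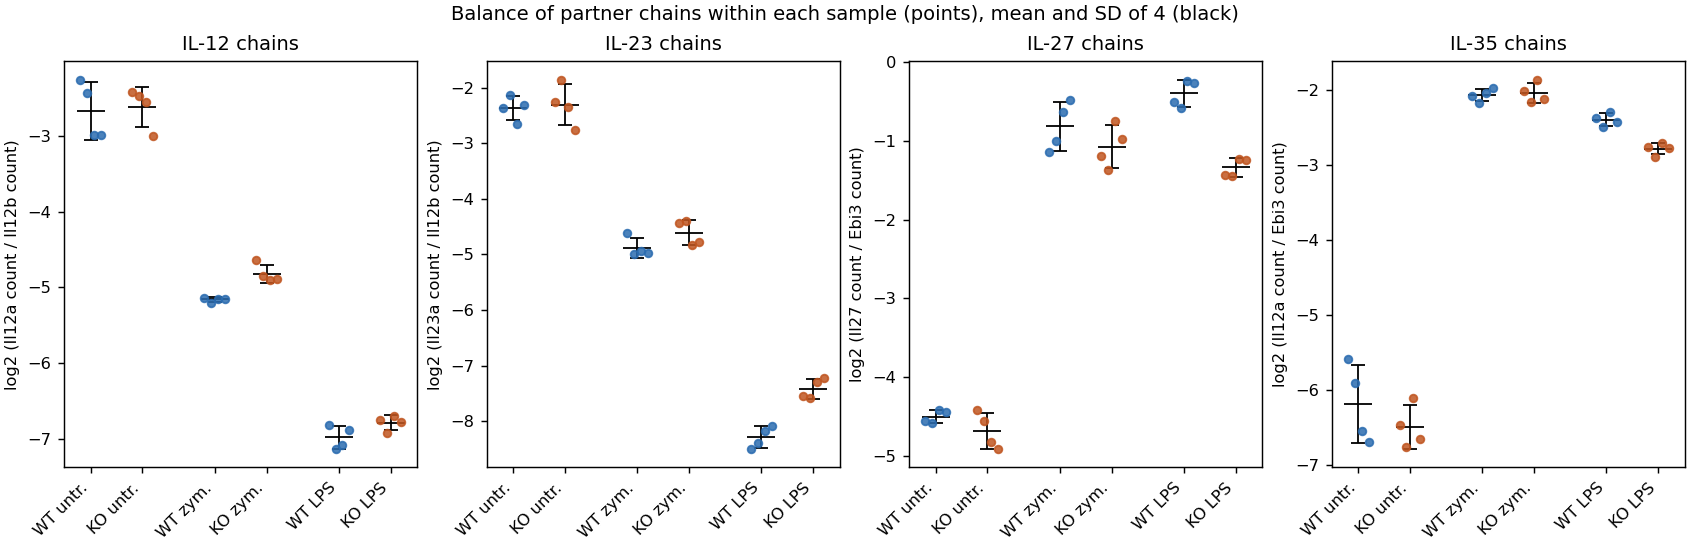
log2 ratio of the counts of 2 partner chains in each sample, for the pairs that make IL-12, IL-23, IL-27 and IL-35, with a point for each sample and the mean and SD of 4. The Il23a to Il12b ratio is -8.29 in the mean of WT cells given LPS and -7.42 in KO cells, and the Il27 to Ebi3 ratio splits by genotype with LPS (-0.40 and -1.33).

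Levels of different genes were compared per kilobase of merged exon (CPM per kb). In untreated WT cells Ebi3 led with 26.3 CPM per kb, and the other 4 lay between 0.216 (Il23a) and 1.34 (Il12b). With LPS in WT cells the order was Il12b at 1456, Ebi3 at 103.4, Il27 at 89.1, Il12a at 13.3 and Il23a at 4.08 CPM per kb. With Zymosan it was Il12b at 359.7, Ebi3 at 72.4, Il27 at 46.5, and then Il12a at 11.6 and Il23a at 10.8 CPM per kb. Il12b thus led with both stimuli, and Il12a exceeded Il23a clearly with LPS but by little with Zymosan.

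On this scale p40 message exceeded p35 message 30.98 ± 0.67-fold with Zymosan and 110.1 ± 11.5-fold with LPS in WT cells (SD, n = 4). It exceeded p19 message 33.9 ± 3.93-fold with Zymosan and 362.2 ± 49.1-fold with LPS. The Il27 to Ebi3 ratio per length was 0.0484 in untreated WT cells, 0.654 ± 0.14 with Zymosan and 0.864 ± 0.104 with LPS, so Ebi3 message was in excess in each group mean, most of all without a stimulus. In KO cells with LPS this ratio was 0.449. With the longest coding sequence as the length, the excess of p40 over p35 message in WT cells was 25.2-fold with Zymosan and that over p19 message was 17.4-fold, so the order of Il12a and Il23a with Zymosan turned with the length used. With LPS these were 89.7-fold and 185.5-fold, and Il12a led on both lengths.

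The receptors of these cytokines and the kinases and STATs below them formed a list of 11 genes. The shares of all genes called, given above for each comparison, are the background for the counts of this list and those that follow. In WT cells 9 rose and 2 fell with each stimulus (list medians 0.89 with Zymosan and 1.08 with LPS). Among those that rose was Il23r, a chain of the IL-23 receptor (log2 3.21 ± 0.15 with Zymosan and 3.62 ± 0.15 with LPS). The 2 that fell were Il27ra and Il6st, the chains of the IL-27 receptor (-0.83 and -0.81 with Zymosan, -1.15 and -1.05 with LPS). The ligand chain Il27 and its receptor chains therefore changed in opposite directions with each stimulus.

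Of the same 11, 3 were higher and 8 lower with Zymosan than with LPS in WT cells, led by Stat4 (0.47), which carries the IL-12 signal, and Il12rb1 (-0.62), the receptor chain shared by IL-12 and IL-23. In KO against WT cells 1 was higher and 4 lower with Zymosan, and 0 higher (0 also unadjusted) and 6 lower with LPS. Il23r was among those lower with LPS (log2 -1.23 ± 0.12, edgeR adjusted p = 3.86e-08), so the ligand chain Il23a was not called while its receptor chain was lower. With the closer samples summed, 1 was higher and 4 lower for Zymosan over LPS, and 3 were lower in KO cells with LPS. With library totals 3 were lower in KO cells with LPS.

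Transcription factors known to act on the family formed a list of 15. In WT cells 11 rose and 1 fell with Zymosan, where 34.3% of all genes tested were called higher and 35.9% lower. With LPS 10 rose and 1 fell, where 35.9% were called higher and 39.7% lower (list median 0.72 with each stimulus). With library totals these were 8 and 5 with Zymosan and 9 and 5 with LPS. Nfkb2, an NF-kappa-B subunit, had log2 fold changes of 1.91 with Zymosan and 2.56 with LPS, and Irf1, an interferon regulatory factor known at Il12a and Il27, had 1.95 and 2.31. Between the stimuli in WT cells 4 were higher with Zymosan and 7 lower. Those higher were led by Irf4 (log2 0.48 ± 0.06, adjusted p = 2.95e-07) and included Rel, the c-Rel subunit of NF-kappa-B (0.31 ± 0.06, adjusted p = 0.000192). Those lower included Irf8, a factor known at Il12b (-0.58 ± 0.04, edgeR adjusted p = 2.55e-11), Nfkb2 (-0.64 ± 0.04) and Spi1, which encodes PU.1 (-0.41). By direction alone, Rel and Irf4 lay on the side of Il23a, and Irf8, Nfkb2 and Spi1 on the side of the other members. The part of these factors in the subunit differences was not tested.

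In KO cells 3 of these 15 were higher and 7 lower with LPS (list median -0.17), and 3 were higher and 4 lower with Zymosan. With LPS Irf8 was lower by a log2 difference of -0.39 ± 0.04 (edgeR adjusted p = 6.42e-08) and Nfkb2 by -0.38 ± 0.04 (adjusted p = 1.2e-07), as were Il27, Il12b and Il12a. Batf3, a factor of the conventional dendritic cell lineage, was higher (0.42, adjusted p = 0.00115). Means with LPS were also higher in KO than in WT cells for Irf4 (319.8 against 251.8 CPM) and Irf5 (308.9 against 281.6 CPM). The part of any of these factors in the genotype differences was not tested. With the closer samples summed, 2 were higher and 6 lower with LPS, and 1 was higher and 2 lower with Zymosan.

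Nfkbiz, an atypical I-kappa-B protein, was kept apart from these factors. It rose with Zymosan (log2 3.30 ± 0.07) and with LPS (2.58 ± 0.07) in WT cells, and was higher with Zymosan (0.72 ± 0.06, edgeR adjusted p = 5.32e-10), the order that Il23a had. Between genotypes it was not called (adjusted p 0.309 to 0.868). Of 3 stress factors, Ddit3, which encodes CHOP and is known to act at Il23a, rose with LPS (log2 1.04) and with Zymosan (0.73) in WT cells and was lower with Zymosan than with LPS (-0.31, edgeR adjusted p = 5.53e-05), the order opposite to that of Il23a. Xbp1 was also lower with Zymosan than with LPS (-0.13, adjusted p = 0.0218, and 0.228 with the closer samples summed), and Atf4 was not called (adjusted p = 0.0671). In KO against WT cells Ddit3 was higher with LPS (0.19, adjusted p = 0.0101, and 0.115 with the closer samples summed), and Xbp1 counts over the whole gene, which do not show splicing, had a log2 difference of -0.0028 with an adjusted p of 0.973.

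Inhibitors of cytokine expression formed a list of 8, and all 8 rose with each stimulus in WT cells (list medians 1.63 with Zymosan and 1.81 with LPS). With Zymosan 0 were higher and 5 lower than with LPS, led by Maf, a repressor of Il12b (log2 -1.08, edgeR adjusted p = 8.01e-12). In KO cells 0 were higher and 5 lower with Zymosan, and 0 were higher and 6 lower with LPS. At an unadjusted edgeR p under 0.05, 0 of the 8 were higher in each of these 3 comparisons. Il10, an anti-inflammatory cytokine that restrains IL-12 production, averaged 14.3 CPM with Zymosan and 14.6 CPM with LPS in WT cells, and 7.47 and 5.32 CPM in KO cells. Its log2 difference between genotypes was -0.94 ± 0.10 with Zymosan (adjusted p = 6.67e-08) and -1.46 ± 0.10 with LPS (edgeR adjusted p = 2.6e-11). The inhibitor Il10 and the subunits Il27 and Il12b were thus all lower in KO cells with each stimulus. With the closer samples summed, 3 of the 8 inhibitors were lower in KO cells with Zymosan and 5 with LPS.

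**Figure D4:**
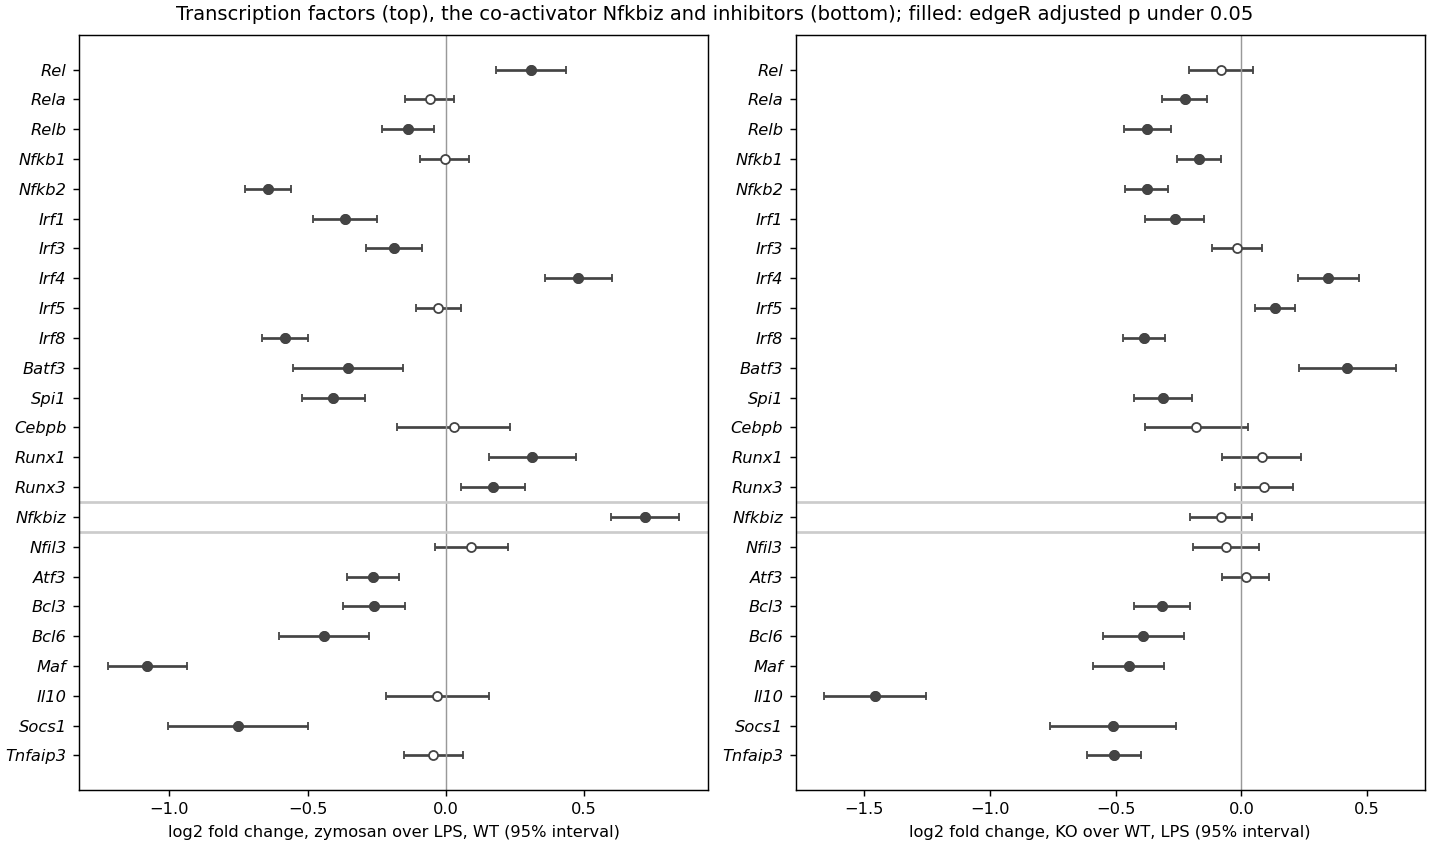
edgeR log2 fold change with 95% interval of 15 transcription factors, Nfkbiz and 8 inhibitors, for Zymosan over LPS in WT cells and for KO over WT with LPS. Filled points have an adjusted p under 0.05. Nfkbiz (0.72) stands farthest to the right for Zymosan over LPS, where Maf stands at -1.08, and Il10 stands farthest to the left for KO over WT (-1.46).

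Among 10 receptors and adaptors for the stimuli, 0 were higher and 6 lower in KO cells with LPS (1 higher at an unadjusted edgeR p under 0.05), and 0 were higher and 5 lower with Zymosan (0 higher unadjusted). The genes that differed most with LPS were Ly96, the MD-2 partner of the LPS receptor (log2 -0.83), Cd14, its co-receptor (-0.76), and Tlr2, a Zymosan receptor (-0.64). Cd14 (-0.40) and Tlr2 (-0.34) were lower already without a stimulus, with adjusted p-values of 0.105 and 0.213 when the closer samples were summed. The signalling receptor for LPS, Tlr4, and the beta-glucan receptor for Zymosan, Clec7a, both named after their values were seen, were not called. Tlr4 with LPS had a log2 difference of 0.16 (95% interval 0.03 to 0.28, edgeR adjusted p = 0.0505), and Clec7a with Zymosan one of -0.21 (-0.45 to 0.03, adjusted p = 0.207). The lower subunit levels of stimulated KO cells thus stood beside lower mRNA of some of the receptors for the stimuli, and the part of these in them was not tested. Of 14 genes for endoplasmic reticulum chaperones and folding enzymes, 9 were lower in KO cells untreated, 12 with Zymosan and 14 with LPS, and 0 were higher by edgeR, also at an unadjusted p under 0.05. Dnajb9, a chaperone gene controlled by XBP1, had log2 differences of -1.45, -2.19 and -2.48. With the closer samples summed, 7, 9 and 12 of the 14 chaperone genes were lower, and 3 of the 10 receptors and adaptors with Zymosan.

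The genes most like each member were ranked by Pearson's r of log2 CPM over the 24 samples, among 9023 genes. For Il12b they were led by Cd40, a co-stimulatory receptor (r = 0.9986). Cd40 averaged 6.67, 244 and 654.9 CPM in untreated, Zymosan and LPS WT cells, and 6.74, 188.9 and 424.4 CPM in KO cells, the order of groups that Il12b had when stimulated. For Il27 they were led by Tap1, the peptide transporter of antigen presentation (r = 0.9966), and included Irf1 (r = 0.996). For Il12a they were led by Zc3h12a, the RNA-degrading enzyme regnase-1 (r = 0.9963), and included Il1b.

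For Il23a they were led by Nfkbiz (r = 0.9963), at 17.6, 173 and 104.9 CPM in untreated, Zymosan and LPS WT cells, and the next gene stood at r = 0.9902. For Ebi3 they were led by Pla1a, a phospholipase (r = 0.9949), and included the chemokine gene Ccl5. Between members r ran from 0.871 (Il23a and Ebi3) to 0.991 (Il12b and Il27). These values share the 6 groups and are set mainly by the differences between conditions. Within groups, after the group means were taken out, r was 0.604 for Il12a and Il12b and -0.364 for Il12b and Il27.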

How the data were processed

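The authors deposited 1 table of counts per gene for the 24 samples, whole numbers that were used unchanged. The build was mm10 and the tools were RSEM 1.2.31, Bowtie2 and DESeq2, per the submitters' processing notes, which state no role or order for them. Per the labels' protocols, RNA was extracted with RNeasy MinElute columns and mRNA libraries were made. Ensembl IDs were named from GENCODE M21, which matched 37570 of 38887.

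From the counts, 14188 genes passed edgeR's filterByExpr (minimum count 10), were scaled by TMM and were fitted with 1 mean per group across all 24 samples (edgeR 4.0.16, limma 3.58.1, R 4.3.3), with 12 contrasts. SE is the log2 fold change over the square root of F. All 5 members passed the filter, also in the untreated groups alone. Named are the members, up to 3 called genes of each list in each direction with the largest fold change, and the 5 genes most like each member. The members and lists were chosen with earlier results of these data known. The fit was tested on simulated data. Alternatives were DESeq2 1.42.0, library totals, no filter, other prior counts, a replicate block, samples left out and, chosen after seeing the data, coding length and the lists under other scalings and sums. Deviations from the group means were correlated between same-numbered untreated and Zymosan samples of each genotype (0.15 to 0.24 in WT, 0.123 to 0.201 in KO, all 4 pairs over 0.1 in each). This correlation is a hint from the data and not from the labels. Zymosan sample 1 matched untreated sample 2 best in both genotypes. Pairing by number thus cannot be told from the split of samples 1 and 2 from 3 and 4. Whether the replicate numbers pair the samples of the other 7 comparisons of groups is not given by the labels, and the main fit used no pairing. Among these, untreated KO and WT samples had same-number r of 0.016, 0.015, 0.131 and 0.109 for samples 1 to 4.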

Additional observations from a re-analysis of the deposited data

Results flagged for a closer look

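Il27 was set apart because the same contrast differed between WT and KO cells by the test of the difference itself. Its response to LPS differed by a log2 interaction of -0.83, and its difference between Zymosan and LPS by 0.54, both past the edgeR threshold of 0.05. Both were lost with the closer samples summed (edgeR adjusted p = 0.239 and 0.837). The first was also lost without KO untreated replicate 1 (edgeR adjusted p = 0.0662), and the second when any 1 of 10 samples was left out. No sample stood far from its group in any of the 30 combinations of 5 members and 6 groups by Dixon's test at its 95% critical value.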

How the results depend on the processing

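The rise of all 5 members with both stimuli, in both genotypes, held under every alternative run. So did the called directions of Il12b and Il23a between the stimuli and of Il12b and Il27 between genotypes with LPS, and no called result of a member reversed. Against 2 members called lower in KO cells with Zymosan, the sums of replicates 1 and 2 and of 3 and 4 called 1 and replicates 1 and 2 alone called 5. Replicates 1 and 2 alone called 1 member untreated (main 0; Il12b, adjusted p = 0.00215), 1 for the interaction with Zymosan (main 0) and 3 for that of Zymosan over LPS (main 1), where replicates 3 and 4 alone called 2. The sums called 0 for the interactions with LPS and of Zymosan over LPS (main 1 each), and the fit of only the groups compared called 0 for the latter. Leaving out 1 sample at a time gave 0 to 1 for each of these 2. With coding length the per-length ratios in WT cells were 25.2, 17.4, 89.7, 185.5 and 0.745 (30.98, 33.9, 110.1, 362.2 and 0.864 with merged exons).

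All 22 reversals were of results not called. With library totals they were Ebi3 in KO over WT with LPS (0.081) and the interactions with LPS of Il12a (0.069) and Ebi3 (0.058). In the fit of only the groups compared, Ebi3 with LPS was 0.0054. With replicates 1 and 2 alone they were Il27 untreated (0.15), Il12b for the interactions with Zymosan (0.065), with LPS (0.16) and of Zymosan over LPS (-0.10), and Il12a with LPS (0.47). With replicates 3 and 4 alone they were Il12a (0.31) and Il12b (0.058) untreated, and the interactions with Zymosan of Il12a (-0.32), Il23a (-0.094) and Il27 (0.088). Leaving out 1 sample gave -0.027 to 0.23 for the Il23a interaction with Zymosan, -0.25 to 0.15 for the Il12a interaction with LPS, and -0.052 to 0.019 for Ebi3 with LPS.

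Of all genes, the sums called 4259 for Zymosan over LPS in WT (main 6587), 3551 in KO (6059), 418, 964 and 1987 for genotype untreated, with Zymosan and with LPS (1411, 3134, 4805), and 0, 5 and 0 for the interactions with Zymosan, with LPS and of Zymosan over LPS (258, 1482, 209), with 2 values a group. In that order of interactions the replicate block called 506, 2396 and 1003 and the block nested in genotype 590, 2555 and 1105, with 887 untreated and 1984 with Zymosan. DESeq2 called 423 and 466 for the first and last, and the groups compared alone 154 for the first. Replicates 1 and 2 alone called 1206, 2976 and 1640 interactions, 3250 untreated and 4727 with Zymosan, and replicates 3 and 4 alone 611 for the last. Leaving out 1 sample gave 125 to 350 and 46 to 379. Of 36 same-number pairs 12 had deviations correlated over 0.1 (-0.0415 to 0.24), and in 19 of the 36 the same number was the best match. All 8 pairs of untreated with Zymosan samples within a genotype were among the 12, and there the block changed no call of a member. In the other comparisons the labels give no pairing. Best matches there often fell within the same closer samples, so the split of samples 1 and 2 from 3 and 4 may be shared between groups. With LPS, KO samples 1 to 4 matched WT samples 2, 2, 4 and 3 best, though WT LPS sample 3 matched untreated WT sample 2. With the replicate block Ebi3 in KO over WT with Zymosan had an adjusted p of 0.0356.

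Library totals moved the median of all genes by -0.38 to 0.10 on the log2 scale. Of the called list results, they ended 40 and reversed 17, mainly against untreated cells, and the sums ended 116 and reversed 0. No called partner balance reversed. The planned coding length from RefSeq proteins was not run. The low untreated counts of Il12a and Il23a limit what could be detected there.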
